A study of Mus with 4 samples.

Results

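Genes that mark the epicardium and the cells derived from it, 6 in number, were followed through 4 RNA-seq libraries of newborn mouse heart. They were *Wt1*, *Tbx18*, *Tcf21*, *Aldh1a2*, *Upk3b* and *Msln*, matched to the deposited table by their Ensembl gene IDs with the version number dropped. All 6 were found among the 55487 IDs of the table. The study examined how raised microRNA-187 (miR-187) affects cardiac endothelial cells in congenital heart disease. These libraries were taken at postnatal day 0 (P0). The labels give 2 groups with 2 libraries each, wild type (WT) and miR-187, both from heart tissue of P0 mice. The study's knock-in (KI) line was made on a C57BL/6J background, and in it a *Tek* (*Tie2*) promoter at the Rosa26 locus drives miR-187 in endothelial cells. The epicardium is not endothelium. Which cells of these libraries supplied the transcripts of the 6 genes was not tested.

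Homozygosity of the miR-187 animals is not given in the labels, which also give no sex, litter or number of animals per library. According to the study's methods, RNA-seq at P0 used KI/KI (homozygous) and WT neonates, with cardiac endothelial cells as the material, while the labels give the heart as the source. Nothing in the labels says that the replicates came from separate animals, so p-values measure only the spread between these libraries, which may be technical. Values are the authors' FPKM (fragments per kilobase of transcript, scaled to the mapped fragments of a library), which can be compared between genes because they are per length. They hold no counts, so the depth is unknown and precision rests on 2 libraries per group. Names are not paired with IDs in the table, so miR-187 itself was not analysed here, nor were markers of cardiomyocytes, endothelium or other tissues.

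MicroRNAs pair with messenger RNAs mainly through a short seed near their 5′ end and lower the output of those messengers. The miRNA that the miR-187 mice carry in excess is shown here as the study's own mimic gives it, 5′ to 3′, with the seed (bases 2 to 8 of 22) in capitals.
miR-187: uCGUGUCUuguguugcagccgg
Whether the 6 messengers hold sites for this seed was not analysed here.

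The epicardium is the mesothelial sheet that covers the heart. During development some of its cells undergo epithelial-to-mesenchymal transition, move into the myocardium and become fibroblasts, pericytes and smooth muscle of the coronary vessels. It also signals to the growing myocardium, and retinoic acid made in the epicardium is among the best-known parts of that dialogue. The 6 genes cover these roles. *Wt1* and *Tbx18* encode transcription factors of the epicardial cell, and *Tcf21* encodes a basic helix-loop-helix factor of the epicardial lineage that is needed for cardiac fibroblasts. *Aldh1a2* encodes the retinaldehyde dehydrogenase that makes retinoic acid. *Upk3b* (uroplakin 3B) and *Msln* (mesothelin) encode surface proteins of mesothelium, including that of the pleura.

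On the RefSeq annotation of GRCm38 (mm10, the build in the submitters' processing notes), *Wt1* (ENSMUSG00000016458) spans chr2:105126529-105173614 and *Tbx18* (ENSMUSG00000032419) spans chr9:87702800-87731260. *Tcf21* (ENSMUSG00000045680) spans chr10:22817263-22820143 and *Aldh1a2* (ENSMUSG00000013584) spans chr9:71215789-71296243. *Upk3b* (ENSMUSG00000042985) lies at chr5:136038496-136044993 and *Msln* (ENSMUSG00000063011) at chr17:25748613-25754378. The 2 members on chromosome 9 are 16406556 bp apart, so the set holds no cluster of adjacent genes. Some neighbours are close enough to share reads where strand is not used, and the use of strand by the authors was not stated. The whole span of *Tcf21* (2881 bp) lies within that of the long noncoding RNA *Gm10824*. The span of *Wt1os* ends 18 bp before that of *Wt1*, that of *Mslnl* ends 258 bp before that of *Msln*, and that of *Gm3458* ends 402 bp before that of *Aldh1a2*. The values of these 4 members therefore carry that uncertainty. For *Upk3b* and *Tbx18* the nearest neighbours were 5614 and 8123 bp away.

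Expression of all 6 genes was moderate to low in every library. *Aldh1a2* had the highest mean, 14.4 ± 6.73 FPKM (SD over all 4 libraries), followed by *Tcf21* with 7.28 ± 1.95 FPKM. *Msln* with 4.43 ± 2.31 FPKM and *Wt1* with 4.31 ± 1.28 FPKM could not be told apart, and each exceeded the other in 2 of the 4 libraries. *Tbx18* had a mean of 2.30 ± 0.443 FPKM and *Upk3b* had 1.31 ± 0.491 FPKM. *Upk3b* was the lowest of the 6 in each of the 4 libraries. *Aldh1a2* was the highest in every library except WT replicate 2, where *Tcf21* led. *Tbx18* was below *Wt1* and *Tcf21* in all 4 libraries, and it exceeded *Msln* only in miR-187 replicate 1.

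**Figure D1:**
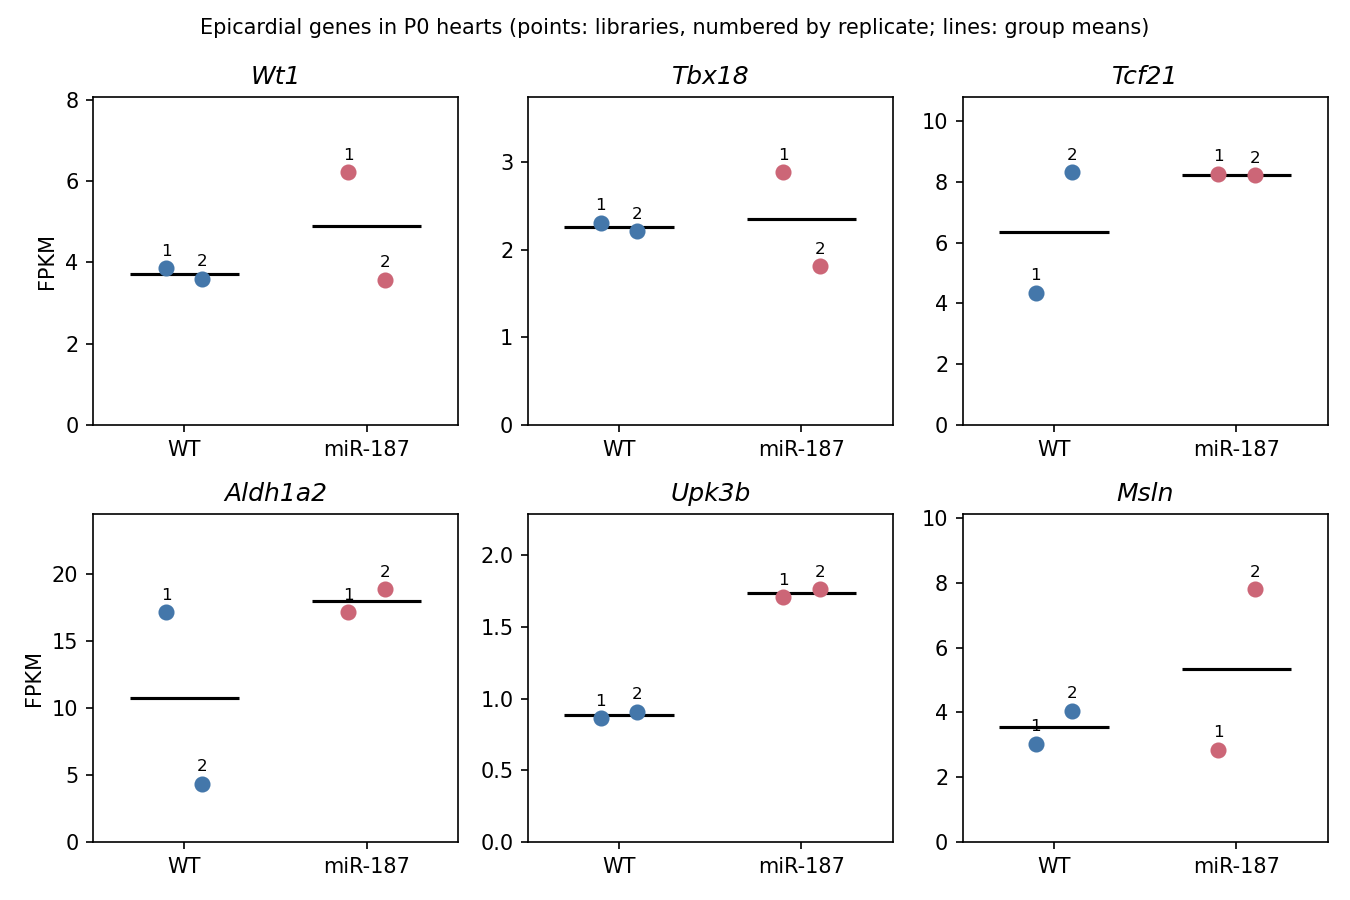
FPKM (y axis, from 0) of each epicardial gene in WT and miR-187 hearts. Points are single libraries numbered by replicate and lines are group means. *Upk3b* has both miR-187 points near 1.7 FPKM and both WT points near 0.9, whereas the other genes have one library apart from the rest or overlapping groups.

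Ranks within a library give a second view of level that needs no scaling between libraries. *Aldh1a2* exceeded 95.9% of all IDs in WT replicate 1, 95.6% in miR-187 replicate 1 and 96.0% in miR-187 replicate 2, but 87.6% in WT replicate 2. Its drop in the last library was thus visible in rank as well as in FPKM. *Wt1* exceeded between 86.2% and 90.1% of IDs, and *Tbx18* between 81.7% and 83.9%, the narrowest range of the 6. *Upk3b* exceeded 65.5% and 75.2% of IDs in WT replicates 1 and 2, against 79.0% and 81.4% in miR-187 replicates 1 and 2. The order of the groups was therefore kept for *Upk3b*, but the WT libraries lay further apart in rank than in FPKM. The median of all IDs differed between libraries and was higher in the replicate 1 libraries of both groups (0.562 FPKM for WT, 0.402 FPKM for miR-187) than in the replicate 2 libraries (0.241 and 0.261 FPKM). In WT replicate 1, *Upk3b* was only 1.54 times that median.

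**Figure D2:**
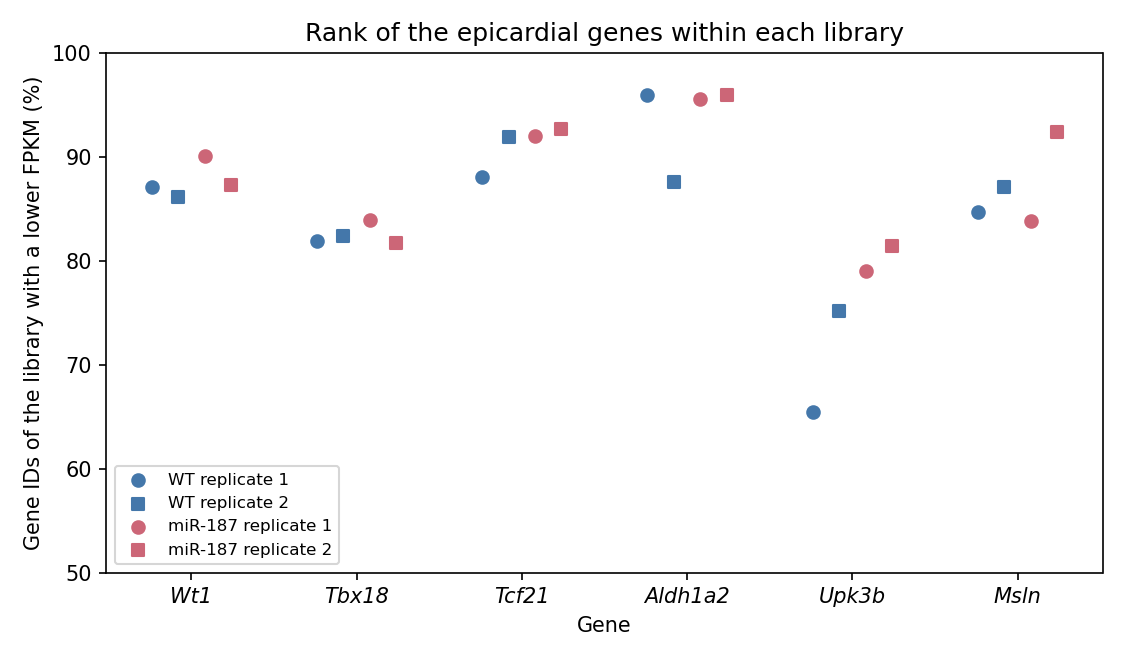
Percentage of all gene IDs of a library with a lower FPKM than the named gene (y axis, starting at 50%), for each gene and library. *Aldh1a2* drops to 87.6% in WT replicate 2, and *Upk3b* ranges from 65.5% in WT replicate 1 to 81.4% in miR-187 replicate 2.

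The comparison of miR-187 with WT asked whether genes of the epicardium differ in hearts in which the endothelium makes more miR-187. None of the 6 differed past the threshold, a Benjamini-Hochberg adjusted p under 0.05 in limma over all 14325 genes whose mean reached 1 FPKM. All 6 members passed that filter, but *Upk3b* passed it only through miR-187, the group where it was high, since its WT mean lay under 1 FPKM. Counts over the members that include *Upk3b* are therefore a description, and the values of the other 5 are given beside them. Over all genes tested, the count in miR-187 was 0 higher (0%) and 1 lower (0.00698%). These counts moved with some other settings, as given in the closing section. Before adjustment, 1 of the 6 had a p under 0.05, *Aldh1a2*, against 447 of all genes (3.12%). All 6 log2 differences were above 0, as deposited and with each of 4 other scalings, compared with 44.3% of all genes tested as deposited and from 48.0% (factors from a trimmed mean of M-values, TMM) to 55.2% (without the 10 most abundant IDs of each library) with the other scalings. Their median was 0.38 against -0.04 for all genes as deposited, and the latter was 0.04 when the 10 most abundant IDs were left out of the scaling. For the other 5 without *Upk3b* the median was 0.37, which fell to 0.21 without WT replicate 1 and to 0.24 without WT replicate 2. That count did not hold when single libraries were left out, as given below for each gene. A bulk library cannot tell fewer cells of a type from less RNA per cell, so none of these values separates the size of the epicardium from the activity of its genes.

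Among the transcription factors of the epicardial cell, *Wt1* stood at 3.86 and 3.60 FPKM in the WT libraries (replicates 1 and 2 in this order, here and below) and at 6.22 and 3.58 FPKM in the miR-187 libraries. Replicate 1 of miR-187 was the high library, 1.61-fold above the nearest of the other 3, which lay within 1.08-fold of each other. Of all genes tested, 295 (2.06%) were at least as far above the others in that library, and the counts for the same gap were 511 and 786 in the WT libraries and 379 in miR-187 replicate 2. The groups overlapped. The WT mean was 3.73 ± 0.187 FPKM and the miR-187 mean 4.90 ± 1.87 FPKM (SD, n = 2 per group). On the log2 scale limma gave a difference of 0.28 ± 0.36 (standard error; 95% interval -0.46 to 1.02, adjusted p = 1.00). Without miR-187 replicate 1 it was -0.05.

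*Tbx18* had the most even values, 2.31 and 2.21 FPKM for WT, then 2.89 and 1.81 FPKM for miR-187. The WT libraries lay between the miR-187 libraries, which were the highest and the lowest of the 4. Its WT mean of 2.26 ± 0.0696 FPKM was close to its miR-187 mean of 2.35 ± 0.759 FPKM (SD, n = 2 per group). The limma log2 difference, 0.02 ± 0.35 (standard error; 95% interval -0.70 to 0.74), was the smallest of the 6. As a fold of FPKM + 1 this interval ran from 0.615 to 1.67, a scale that understates the change in FPKM at such levels. Leaving out WT replicate 2 or miR-187 replicate 1 turned the sign, to -0.0014 and -0.21.

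For *Tcf21*, the factor of the fibroblast lineage, the WT libraries gave 4.35 and 8.31 FPKM, and the miR-187 libraries gave 8.26 and 8.21 FPKM. WT replicate 1 was the low library, whereas the other 3 agreed within 1.01-fold. The gap from WT replicate 1 to the nearest of the others was 1.89-fold, and 130 of the 14325 genes tested (0.908%) were at least as far below the others in that library. The same gap was found for 357 genes in WT replicate 2, 133 in miR-187 replicate 1 and 562 in miR-187 replicate 2. The groups overlapped, with a WT mean of 6.33 ± 2.80 FPKM and a miR-187 mean of 8.24 ± 0.0362 FPKM (SD, n = 2 per group). The limma log2 difference of 0.39 (standard error 0.37, 95% interval -0.39 to 1.16, adjusted p = 1.00) became -0.01 without WT replicate 1.

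*Aldh1a2*, the source of retinoic acid, varied most. It had 17.1 FPKM in WT replicate 1 and 4.36 FPKM in WT replicate 2, with 17.2 and 18.9 FPKM in miR-187 replicates 1 and 2. WT replicate 2 was 3.93-fold below the nearest of the other libraries, which lay within 1.10-fold of each other. Of all genes tested, 42 (0.293%) were at least as far below the others in WT replicate 2, and the same gap was found for 21 genes in WT replicate 1, 19 in miR-187 replicate 1 and 77 in miR-187 replicate 2. The groups did not overlap, but the lower miR-187 value was only 1.001 times the higher WT value. The WT mean was 10.8 ± 9.04 FPKM, against a miR-187 mean of 18.0 ± 1.20 FPKM (SD, n = 2 per group).

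Between groups, limma gave *Aldh1a2* a log2 difference of 0.95 ± 0.46 (standard error). The 95% interval ran from 0.000167 to 1.89, the unadjusted p was 0.050 and the adjusted p was 1.00. This difference rested on WT replicate 2, without which it was 0.07. Without WT replicate 1, the WT arm was replicate 2 alone, so the spread of that arm could not be measured. In that fit limma took the spread of each gene wholly from genes at a like level, not from the gene's own replicates. The log2 difference was then 1.82 with a limma adjusted p of 0.0300, in a fit that called 0.297% of 13813 genes higher.

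The surface genes of mesothelium were both highest in miR-187 replicate 2, but of the pair only *Upk3b* had groups that did not overlap. *Upk3b* measured 0.863 and 0.908 FPKM in the WT libraries, against 1.71 and 1.76 FPKM in the miR-187 libraries. Both miR-187 libraries were above both WT libraries, and the lower miR-187 value was 1.88 times the higher WT value. The miR-187 mean of 1.73 ± 0.0387 FPKM was 1.96 times the WT mean of 0.885 ± 0.0311 FPKM (SD, n = 2 per group). On the log2(FPKM + 1) scale, which understates changes at such low values, the limma difference was 0.54 ± 0.35 (standard error; 95% interval -0.19 to 1.27). The adjusted p was 1.00 and the unadjusted p was 0.141. In limma the spread of each gene is drawn towards that of genes at a like level, so this standard error is wider than the replicates of *Upk3b* alone would give. With any 1 library left out the difference stayed between 0.52 and 0.55, which only restates how close the replicates of each group were. With a pseudocount of 0.1 FPKM in place of 1 it was 0.90 with a standard error of 0.61, and the adjusted p was again 1.00.

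*Msln* reached 3.03 and 4.04 FPKM in the WT libraries, with 2.85 and 7.80 FPKM in the miR-187 libraries. The miR-187 libraries were the lowest and the highest of the 4, and the groups overlapped. Replicate 2 of miR-187 was 1.93-fold above the nearest of the others, a gap reached in that library by 197 of all genes tested (1.38%), by 83 in the other miR-187 library and by 214 and 412 in the WT libraries. The miR-187 mean was 5.33 ± 3.50 FPKM and the WT mean 3.54 ± 0.720 FPKM (SD, n = 2 per group). The limma log2 difference of 0.37 had a standard error of 0.39 (95% interval -0.44 to 1.18, adjusted p = 1.00), and it was -0.23 without miR-187 replicate 2. That library also held 16 IDs at or above 10 FPKM that exceeded every other library at least 10-fold, whereas WT replicate 1 and miR-187 replicate 1 held 0 and WT replicate 2 held 4. Their part in the value of *Msln* was not tested.

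**Figure D3:**
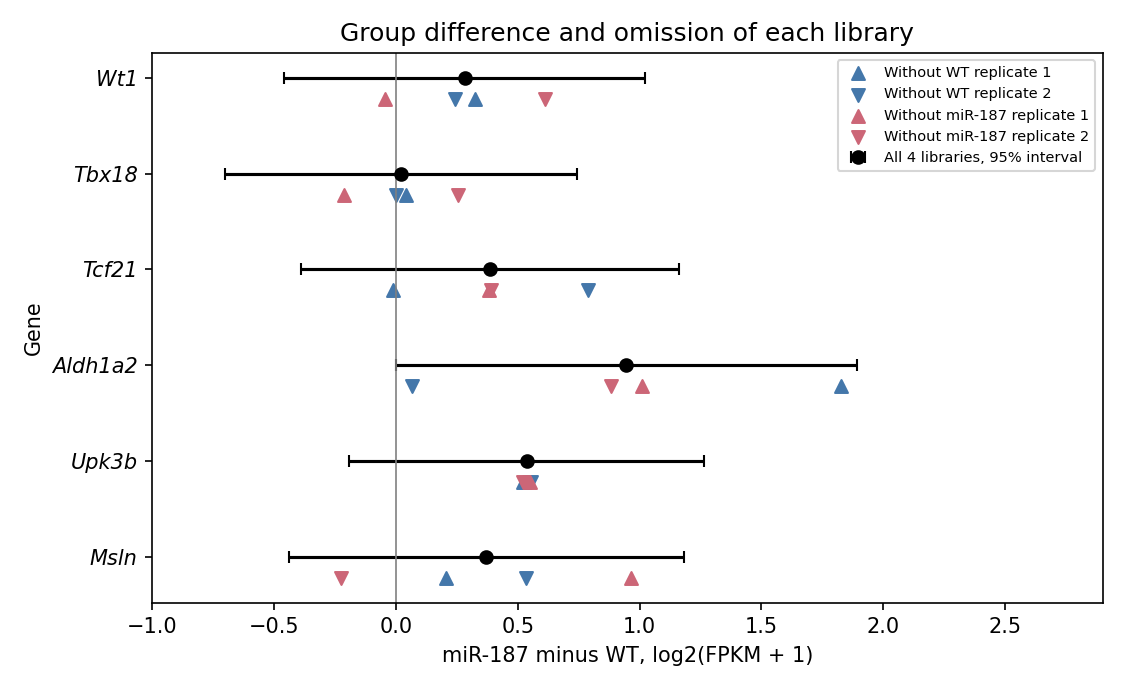
Difference between miR-187 and WT on the log2(FPKM + 1) scale (x axis) for each gene, with the 95% interval from limma on all 4 libraries (black) and the difference after leaving out each library (triangles). *Upk3b*, whose replicates are close, stays at 0.52 to 0.55, *Aldh1a2* moves from 0.07 to 1.82, and *Wt1*, *Tbx18*, *Tcf21* and *Msln* cross 0.

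The group difference was set against the difference between the 2 replicates within each group. It was larger than both replicate differences for 1 of the 6, *Upk3b*, whose replicates differed by 0.03 in WT and by 0.03 in miR-187 on the log2(FPKM + 1) scale. Among all genes tested, 7.51% were higher in miR-187 by this measure. Since *Upk3b* was in that set only through its miR-187 values, nothing is read from this share. With a minimum mean of 0.1 FPKM, which each of its libraries exceeded, the share was 4.64% of 49380 genes, and the limma adjusted p of *Upk3b* was 1.00. None of the other 5 met this measure. For *Wt1*, *Tbx18* and *Msln* the miR-187 replicates differed most, by 0.66, 0.47 and 1.19. For *Tcf21* and *Aldh1a2* the WT replicates differed most, by 0.80 and 1.76. The groups did not overlap for 2 of the 6, *Upk3b* and *Aldh1a2*, both higher in miR-187, beside 12.3% of all genes with both miR-187 libraries above both WT libraries (7.83% with a minimum mean of 0.1 FPKM). Of the 5 members that reached 1 FPKM in both groups, 1 had groups that did not overlap, *Aldh1a2*.

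**Figure D4:**
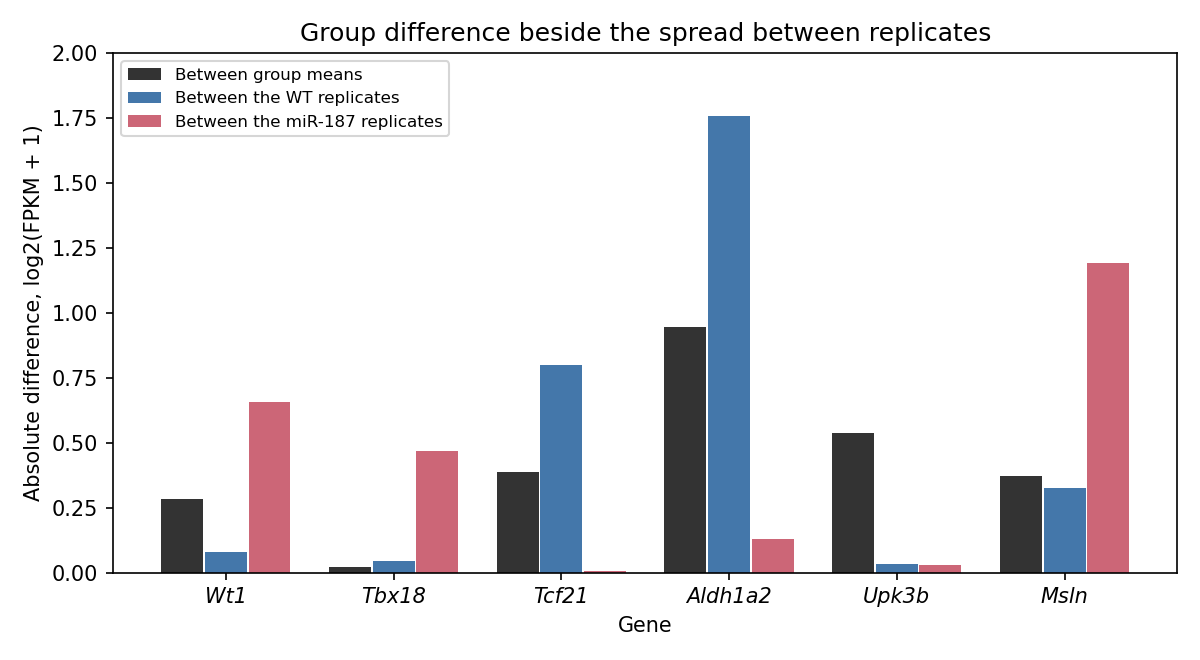
Absolute difference on the log2(FPKM + 1) scale (y axis, from 0) between the group means, between the WT replicates and between the miR-187 replicates of each gene. The bar between groups is the tallest of the 3 only for *Upk3b*.

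The 6 genes did not move together from library to library. *Wt1* and *Tbx18* were both highest in miR-187 replicate 1, while *Aldh1a2*, *Upk3b* and *Msln* were highest in miR-187 replicate 2 and *Tcf21* in WT replicate 2. The likeness of a pair of genes was described by the root-mean-square difference of their deviations from their own means over the 4 libraries, in log2 units. By this measure *Wt1* and *Tbx18* were the most alike of the 15 pairs, at 0.15. The pair of mesothelial surface genes, *Upk3b* and *Msln*, stood at 0.43. *Aldh1a2* was at least 0.67 from each of the others, and the least alike pair was *Tcf21* and *Aldh1a2* at 0.95, since each was low in a different WT library. With 4 libraries these distances are a description only.

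**Figure D5:**
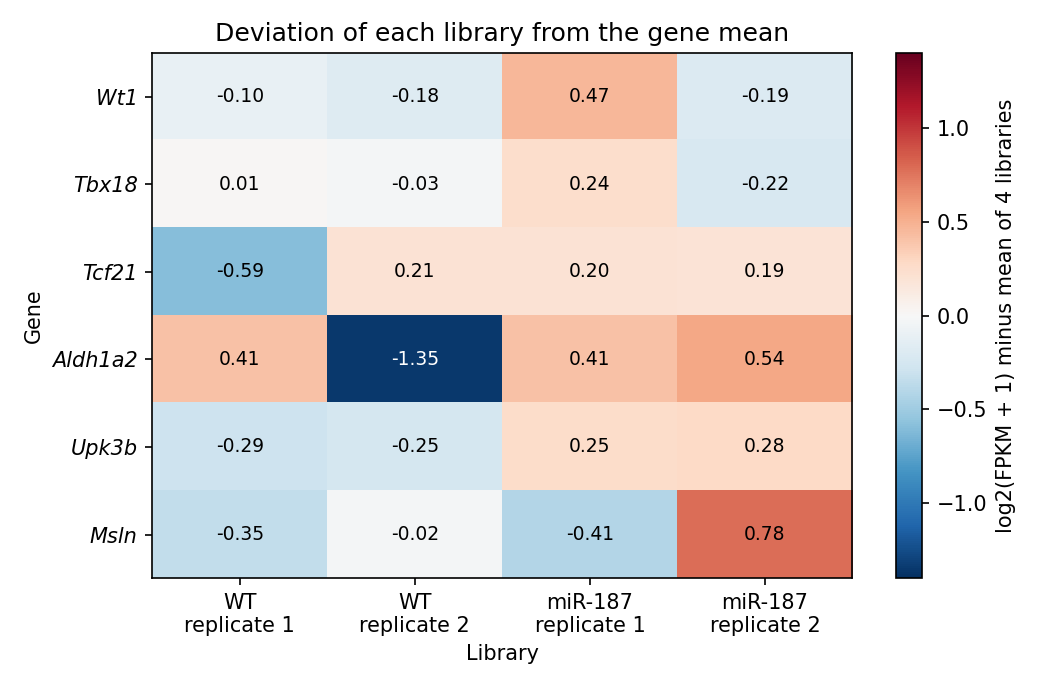
Deviation of each library (columns) from the mean of the 4 libraries for each gene (rows), as log2(FPKM + 1), with blue below and red above the mean. The strongest deviations are *Aldh1a2* in WT replicate 2 (-1.35), *Msln* in miR-187 replicate 2 (0.78) and *Tcf21* in WT replicate 1 (-0.59), each in a different library.

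Ratios between members within a library, which a constant factor per library cannot alter, showed the same unevenness. *Aldh1a2* was 4.44 and 1.21 times *Wt1* in WT replicates 1 and 2, and 2.76 and 5.27 times in miR-187 replicates 1 and 2. *Tcf21* was 1.13 and 2.31 times *Wt1* in WT, against 1.33 and 2.29 times in miR-187, so the replicate 2 libraries of both groups had the higher ratio. *Msln* was 3.50 and 4.46 times *Upk3b* in WT, and 1.67 and 4.43 times in miR-187. In each of these ratios the range of one group overlapped that of the other or enclosed it. The summed FPKM of the 6 genes was 31.6 and 23.4 in WT and 39.1 and 42.0 in miR-187. *Aldh1a2* made up between 18.6% of that sum in WT replicate 2 and 54.3% in WT replicate 1. Without it the WT sums were 14.4 and 19.1 FPKM and the miR-187 sums 21.9 and 23.2 FPKM.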

How the data were processed

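Libraries were made from total RNA of P0 heart and sequenced in paired ends by Illumina NovaSeq. The authors deposited FPKM values for 55487 IDs. HISAT2, StringTie, DESeq2 and the build mm10 are named in the submitters' processing notes, without versions or roles. The annotation, the strand setting and filters are not given in the sources used here. FPKM values are not counts, so log2(FPKM + 1) was analysed with limma 3.58.1 (lmFit, eBayes with a trend; R 4.3.3) for genes whose mean over the 4 libraries reached 1 FPKM. Tests were two-sided, with Benjamini-Hochberg adjustment over all genes tested. An exact permutation test of 2 against 2 libraries cannot give a p below 0.333 and was not used.

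Members and lists were chosen with earlier results of these data known. The rule for named genes took all 6 members and, where IDs could be paired with names, genes of 14 other lists (111 symbols) and the genes most like the members. A RefSeq table for GRCm38.p6 with 49997 rows gave positions by symbol but held 0 Ensembl IDs, so those lists and genes were not analysed here. Planned differences between replicate numbers and crossed pairs were replaced by differences between replicates within each group. Counts of genes as far out as a member in 1 library were chosen after seeing the data. Alternatives were another pseudocount, other filters, other scalings, other eBayes settings, a replicate block and leaving out each library in turn. Figures were drawn with matplotlib 3.10.9 (Python 3.11.15).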

Additional observations from a re-analysis of the deposited data

How the results depend on the processing

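Of 86 values for the 6 genes under the alternatives, 80 kept their direction and their side of the threshold, 5 changed sign and 1 passed the threshold, and these 6 all came from leaving out a library. With 1 library left out, the log2 differences ran from -0.045 to 0.61 for *Wt1*, from -0.21 to 0.25 for *Tbx18*, from -0.012 to 0.79 for *Tcf21*, from 0.066 to 1.82 for *Aldh1a2*, from 0.52 to 0.55 for *Upk3b* and from -0.23 to 0.97 for *Msln*. The median of the members, 0.38, was 0.67 with a minimum mean of 5 FPKM, where only *Tcf21* and *Aldh1a2* were tested. With 1 library left out it ran from 0.27 (without WT replicate 1) to 0.47 (without miR-187 replicate 1), and without *Upk3b* from 0.21 (without WT replicate 1) to 0.39 (without miR-187 replicate 2). The median of all genes tested, -0.04, was between -0.01 and 0.04 with the other scalings and reached -0.14 when miR-187 replicate 1 was left out and 0.06 when miR-187 replicate 2 was. The median of the members was between 0.42 and 0.47 with quantile normalization, TMM factors (trimmed mean of M-values), median centring and a further scaling. That scaling left out the 10 most abundant IDs of each library and was added once the data had been seen. The counts of 0 higher and 1 lower gene became 31 and 15 with a minimum mean of 0.1 FPKM, 4 and 2 with robust eBayes, and 22 and 11 without the 10 most abundant IDs. The lower count was 0 with a minimum mean of 5 FPKM, 0 without a filter and 0 with quantile normalization. With 1 library left out, from 10 to 60 genes were higher and from 14 to 55 lower. The cause of these changes was not tested.

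With the replicate number as a block, 33 genes were higher and 18 lower, and the replicate block left the log2 differences of the 6 members as they were, with adjusted p-values of 1.00. Same-numbered libraries deviated together with r = -0.0675 across genes, and no litter or batch is tied to a number in the labels, so no pairing was assumed. The library medians were nevertheless higher in the replicate 1 libraries of both groups, as given above. Alternatives for genes of the other lists were not run. Depth limits cannot be given, since the values hold no counts.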
